A study of Homo sapiens with 8 samples.

Results

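Mitochondrial ribosomal proteins were followed here across A549 cells that differed in the siRNA they received and in the glucose of their medium. The members were all probe sets that the platform annotation ties to a single gene whose symbol is MRPL or MRPS and a digit, with pseudogenes and the noncoding MRPL20-AS1 left out. This gave 140 of the 41091 probe sets tied to a single gene, for 75 genes of 19775. The 75 genes were 27 MRPS and 48 MRPL genes, out of 77 protein-coding genes of these names in RefSeq. The other 2, MRPS24 and MRPL53, are named only on probe sets that name several genes and were not analysed here. No probe set carried the symbol MRPS36.

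The mitochondrial ribosome translates the few messages of the mitochondrial genome, all of which encode subunits of the oxidative phosphorylation machinery. Its RNAs are made in the organelle, but every one of its proteins is encoded in the nucleus, translated in the cytosol and imported. Some of these proteins have counterparts in bacterial ribosomes, and others were gained in the mitochondrial lineage. The symbols do not always give the subunit: MRPS30 and MRPS18A are proteins of the large subunit in spite of their names.

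A549 is an established human lung adenocarcinoma line. Cells were transfected by means of DharmaFECT 1 with a control siRNA or with one against SRC-1, a coactivator of nuclear receptors whose gene is NCOA1. They were then held for 36 h in medium with 10% dialyzed serum, which carries few small molecules, and given medium with or without glucose, again with 10% dialyzed serum. How long this lasted is not stated in the labels. The 4 groups combined either siRNA with either medium, and each was run on 2 Affymetrix 3' expression arrays labelled as biological replicates. The labels say no more of how the replicates were kept apart, so p-values reflect how these arrays spread, which may be technical, and their number limits the precision. The series title places SRC-1 between glucose and the NAD+ to NADH balance, and the design asks how each medium and each siRNA changes expression.

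The values are used as log2 signals per probe set. Array medians lay between 4.97 and 5.01, and replicate arrays correlated at 0.997 to 0.998, both over all 54675 probe sets. A gene was represented by its probe set of highest mean, and 13584 genes whose probe set passed a filter at log2 4.80 were tested together with limma. All 75 members passed, as did 127 of their 140 probe sets. NCOA1 checked the labels: its signal was 8.34 and 8.24 without and 8.60 and 8.42 with glucose under control siRNA, and 5.22 and 5.09 without and 5.47 and 5.18 with glucose under SRC-1 siRNA. The A549 and epithelial markers KRT8, KRT18, KRT19, EPCAM, AKR1B10, ALDH1A1 and AKR1C1 had mean signals between 8.09 and 14.4. Of the markers of other cell types reported here, PTPRC, CDH5, COL1A2 and PDGFRA were under the filter, and CD3E, CD14, PECAM1, VWF, DCN and COL1A1 lay past it at means of 5.01 to 7.88. CDKN2A, which is deleted in A549, read 5.95, so a signal past the filter does not by itself show a transcript. A bulk measurement cannot tell fewer cells from less RNA per cell.

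Some mitoribosomal genes were higher with glucose and others lower, with small differences in both directions, and 35 of the 75 were called in neither arm. With control siRNA, 20 of the 75 genes rose and 16 fell with glucose at an adjusted p below 0.05. Of all genes tested, 23.6% rose and 21.6% fell in this comparison, or 45.2% in either direction, beside 48% of the mitoribosomal genes. With SRC-1 siRNA, 20 rose and 17 fell, or 49.3%, beside 24.6% and 20.0% of all genes and 44.7% in either direction. The share of mitoribosomal genes called was thus near that of all genes in both arms. The members were bright, however: the probe sets used lay at a median percentile of 93.4 of all single-gene probe sets, the lowest at 74.6. Their median SE of a difference was 0.069, beside 0.083 over all genes tested. Like shares of calls therefore do not show like responses. With control siRNA, the arrays of the 2 media did not overlap for 63 of the 75 genes, beside 9763 of all 13584. With SRC-1 siRNA this held for 61 of the 75, beside 9724 of all genes. A lack of overlap is therefore common with 2 arrays a group.

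The sizes were modest. The median log2 difference over the 75 genes was 0.053 with control siRNA, beside 0.00088 over all genes, and 0.042 with SRC-1 siRNA, beside 0.0059. Differences ran from -0.61 to 0.56 with control siRNA and from -0.52 to 0.60 with SRC-1 siRNA. A called difference of at least 1.5-fold was found for 1 member in each arm, MRPS10 with control siRNA and MRPS6 with SRC-1 siRNA, while 14.8% of all genes passed that mark with control siRNA and 14.8% with SRC-1 siRNA. The median size without regard to sign was 0.18 with control and 0.20 with SRC-1 siRNA for the members, and 0.21 in both arms for all genes. In a principal component analysis of the 75 genes the first component held 88.5% of the variance, beside 86.1% over all genes tested. For the 75 genes it placed the 4 glucose arrays on one side and the 4 arrays without glucose on the other.

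**Figure D1:**
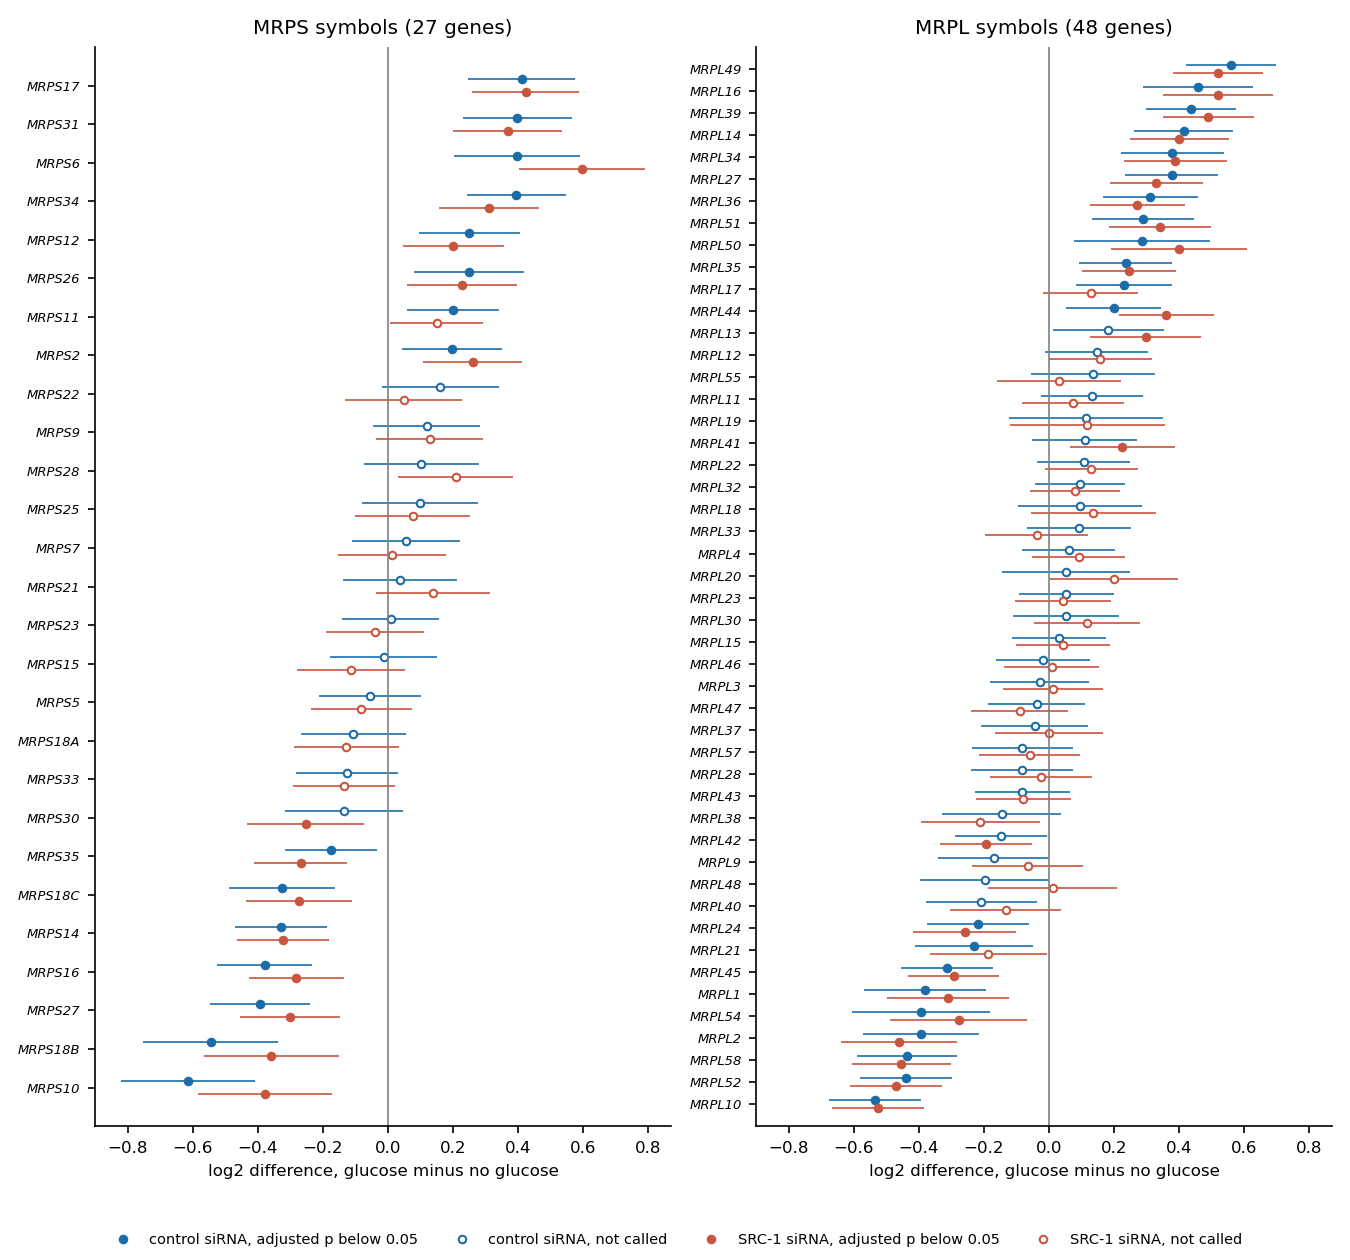
Log2 difference of glucose minus no glucose for each of the 75 genes, with control siRNA (blue) and SRC-1 siRNA (red). Points are differences of 2-array means, bars are 95% intervals from limma, and filled points have an adjusted p below 0.05. Both panels run from clear rises at the top to clear falls at the bottom, and the blue and red points of a gene lie close together.

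With control siRNA the 4 highest differences belonged to large-subunit proteins. MRPL49, a protein of the large subunit with no bacterial counterpart, read 9.99 and 10.00 without and 10.54 and 10.57 with glucose under control siRNA, and 10.02 and 10.04 without and 10.54 and 10.57 with glucose under SRC-1 siRNA. All 4 glucose arrays thus lay above all 4 arrays without glucose, and the replicates nearly coincided. The log2 difference was 0.56 ± 0.061 (SE, n = 2 against 2, limma adjusted p = 1.53e-04) with control siRNA and 0.52 ± 0.061 (adjusted p = 2.21e-04) with SRC-1 siRNA.

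MRPL16, the counterpart of bacterial L16, read 9.21 and 9.26 without and 9.67 and 9.72 with glucose under control siRNA. Under SRC-1 siRNA it read 9.22 and 9.13 without and 9.63 and 9.77 with glucose. The groups did not overlap in either arm, and the differences were 0.46 ± 0.074 and 0.52 ± 0.074 (adjusted p = 0.00121 and 6.21e-04). MRPL39, a protein related to threonyl-tRNA synthetase that lies near the exit of the polypeptide tunnel, rose by 0.44 ± 0.061 and 0.49 ± 0.061, from 9.73 to 9.79 on the 4 arrays without glucose to 10.20 to 10.24 on the 4 with it. MRPL14, on which the silencing factor MALSU1 docks to keep a free large subunit from joining the small one, read 9.91 to 9.99 without glucose and 10.32 to 10.38 with it. Its differences were 0.41 ± 0.066 and 0.40 ± 0.066.

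Further rises in both arms came from proteins placed in several regions of the large subunit. MRPL27, whose bacterial counterpart reaches toward the peptidyl transferase centre, read 11.20 to 11.27 on the arrays without glucose and 11.58 to 11.63 on those with it, a difference of 0.38 ± 0.062 with control and 0.33 ± 0.062 with SRC-1 siRNA. MRPL34, the counterpart of the small bacterial protein L34, rose by 0.38 ± 0.069 and 0.39 ± 0.069. MRPL36, the counterpart of bacterial L36, rose by 0.31 ± 0.064 and 0.27 ± 0.064. The proteins without bacterial counterparts MRPL50 and MRPL51 rose by 0.28 ± 0.091 and 0.29 ± 0.068 with control siRNA and by 0.40 ± 0.091 and 0.34 ± 0.068 with SRC-1 siRNA. MRPL35 rose by 0.24 ± 0.063 and 0.25 ± 0.063. MRPL44, a large-subunit protein with a ribonuclease III-like fold, rose by 0.20 ± 0.064 and 0.36 ± 0.064. In none of these did the 2 media overlap within an arm, as was so for most genes tested.

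In the small subunit, MRPS17, MRPS31, MRPS6 and MRPS34 led the rises. MRPS17, the counterpart of the RNA-binding bacterial protein S17, read 9.94 and 10.04 without and 10.39 and 10.42 with glucose under control siRNA, and 10.05 and 9.92 without and 10.42 and 10.39 with glucose under SRC-1 siRNA. The groups were apart in both arms, by 0.41 ± 0.072 (adjusted p = 0.00189) and 0.42 ± 0.072 (adjusted p = 0.00164). MRPS31, which has no bacterial counterpart, rose from 8.66 and 8.77 to 9.16 and 9.06 with control siRNA and from 8.64 and 8.72 to 9.04 and 9.06 with SRC-1 siRNA. Its differences were 0.40 ± 0.073 and 0.37 ± 0.073.

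MRPS6, the counterpart of the bacterial protein S6 that pairs with S18, read 9.82 and 10.00 without and 10.28 and 10.34 with glucose under control siRNA. Under SRC-1 siRNA it read 9.96 and 9.82 without and 10.52 and 10.45 with glucose. The groups did not overlap in either arm. The difference was 0.40 ± 0.085 (1.32-fold, adjusted p = 0.00513) with control siRNA and 0.60 ± 0.085 (1.51-fold, adjusted p = 6.26e-04) with SRC-1 siRNA, the highest rise of a member in that arm. MRPS34, a small-subunit protein without a bacterial counterpart, rose by 0.39 ± 0.067 and 0.31 ± 0.067. MRPS12, the counterpart of the bacterial decoding-centre protein S12, rose by 0.25 ± 0.068 (adjusted p = 0.0160) and 0.20 ± 0.068 (adjusted p = 0.0407). MRPS2 and MRPS26 also rose in both arms, by 0.20 and 0.25 with control siRNA and by 0.26 and 0.23 with SRC-1 siRNA.

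Among the falls, MRPS10 and MRPS18B of the small subunit had the lowest differences with control siRNA. MRPS10, the counterpart of the bacterial head protein S10, read 10.52 and 10.64 without and 9.86 and 10.07 with glucose under control siRNA, and 10.51 and 10.53 without and 10.08 and 10.20 with glucose under SRC-1 siRNA. All glucose arrays were below all arrays without glucose, although the glucose replicates spread more than those of MRPL49. The difference was -0.61 ± 0.090 (1.53-fold lower, adjusted p = 7.27e-04) with control siRNA and -0.38 ± 0.090 (1.30-fold lower, adjusted p = 0.00871) with SRC-1 siRNA.

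MRPS18B, one of 3 human proteins related to bacterial S18, read 10.98 and 11.14 without and 10.41 and 10.62 with glucose under control siRNA. Under SRC-1 siRNA it read 10.96 and 11.02 without and 10.61 and 10.65 with glucose. The media were again apart, by -0.55 ± 0.091 and -0.36 ± 0.091. MRPS18C, the relative that takes the place of S18 in the small subunit, fell by 0.33 ± 0.071 and 0.27 ± 0.071. MRPS18A, the third relative, which sits in the large subunit, was not called: its differences were -0.11 ± 0.070 (adjusted p = 0.258) and -0.13 ± 0.070 (adjusted p = 0.179).

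Other small-subunit falls included MRPS27, a pentatricopeptide repeat protein that binds RNA, with -0.39 ± 0.067 and -0.30 ± 0.067. MRPS14 and MRPS16, counterparts of the bacterial proteins S14 and S16, fell by 0.33 ± 0.061 and 0.38 ± 0.064 with control siRNA and by 0.32 ± 0.061 and 0.28 ± 0.064 with SRC-1 siRNA. MRPS35 had a smaller difference, -0.17 ± 0.062 and -0.27 ± 0.062. The 2 media did not overlap within an arm for any of these 4 genes.

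In the large subunit, MRPL10 fell most. This counterpart of bacterial L10 anchors the L7/L12 stalk, which recruits the translational GTPases. It read 10.46 and 10.42 without and 9.92 and 9.89 with glucose under control siRNA, and 10.45 and 10.46 without and 9.95 and 9.91 with glucose under SRC-1 siRNA. The arrays of a medium lay within 0.1 of each other and the media were far apart, with differences of -0.53 ± 0.062 (adjusted p = 2.06e-04) and -0.52 ± 0.062 (adjusted p = 2.23e-04).

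MRPL54, which also lies at the stalk, fell by 0.39 ± 0.092 and 0.28 ± 0.092. The other stalk proteins with a probe set of their own did not pass the test. MRPL11 had differences of 0.13 ± 0.068 (adjusted p = 0.157) and 0.074 ± 0.068 (adjusted p = 0.427). MRPL12, the L7/L12 protein itself, which has also been described as a partner of the mitochondrial RNA polymerase, had differences of 0.15 ± 0.069 (adjusted p = 0.122) and 0.16 ± 0.069 (adjusted p = 0.0980). So of the 4 stalk genes tested, 2 fell and 0 rose in each arm. In either direction, 45.2% of all genes were called with control and 44.7% with SRC-1 siRNA. A lack of rises among 4 genes does not set the stalk apart.

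MRPL58, a peptidyl-tRNA hydrolase built into the large subunit that is known for releasing stalled chains, read 10.49 and 10.45 without and 10.01 and 10.06 with glucose under control siRNA. Under SRC-1 siRNA it read 10.53 and 10.43 without and 10.05 and 10.01 with glucose. All 4 glucose arrays were below all 4 others, with differences of -0.44 ± 0.067 and -0.45 ± 0.067 (adjusted p = 8.98e-04 and 7.51e-04). MRPL52, a protein without a bacterial counterpart, read 10.42 to 10.45 without glucose and 9.94 to 10.01 with it, a fall of 0.44 ± 0.062 and 0.47 ± 0.062.

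MRPL2, the counterpart of the bacterial protein L2 near the peptidyl transferase centre, read 7.83 to 7.95 without glucose and 7.38 to 7.55 with it. It fell by 0.39 ± 0.078 and 0.46 ± 0.078. MRPL1, of the other stalk of the large subunit, fell by 0.38 ± 0.082 and 0.31 ± 0.082. MRPL45, which ties the tunnel exit to the inner membrane, fell by 0.31 ± 0.061 and 0.29 ± 0.061, while its neighbours at the exit MRPL39 and MRPL44 rose. MRPL24 fell by 0.22 ± 0.069 and 0.26 ± 0.069.

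**Figure D2:**
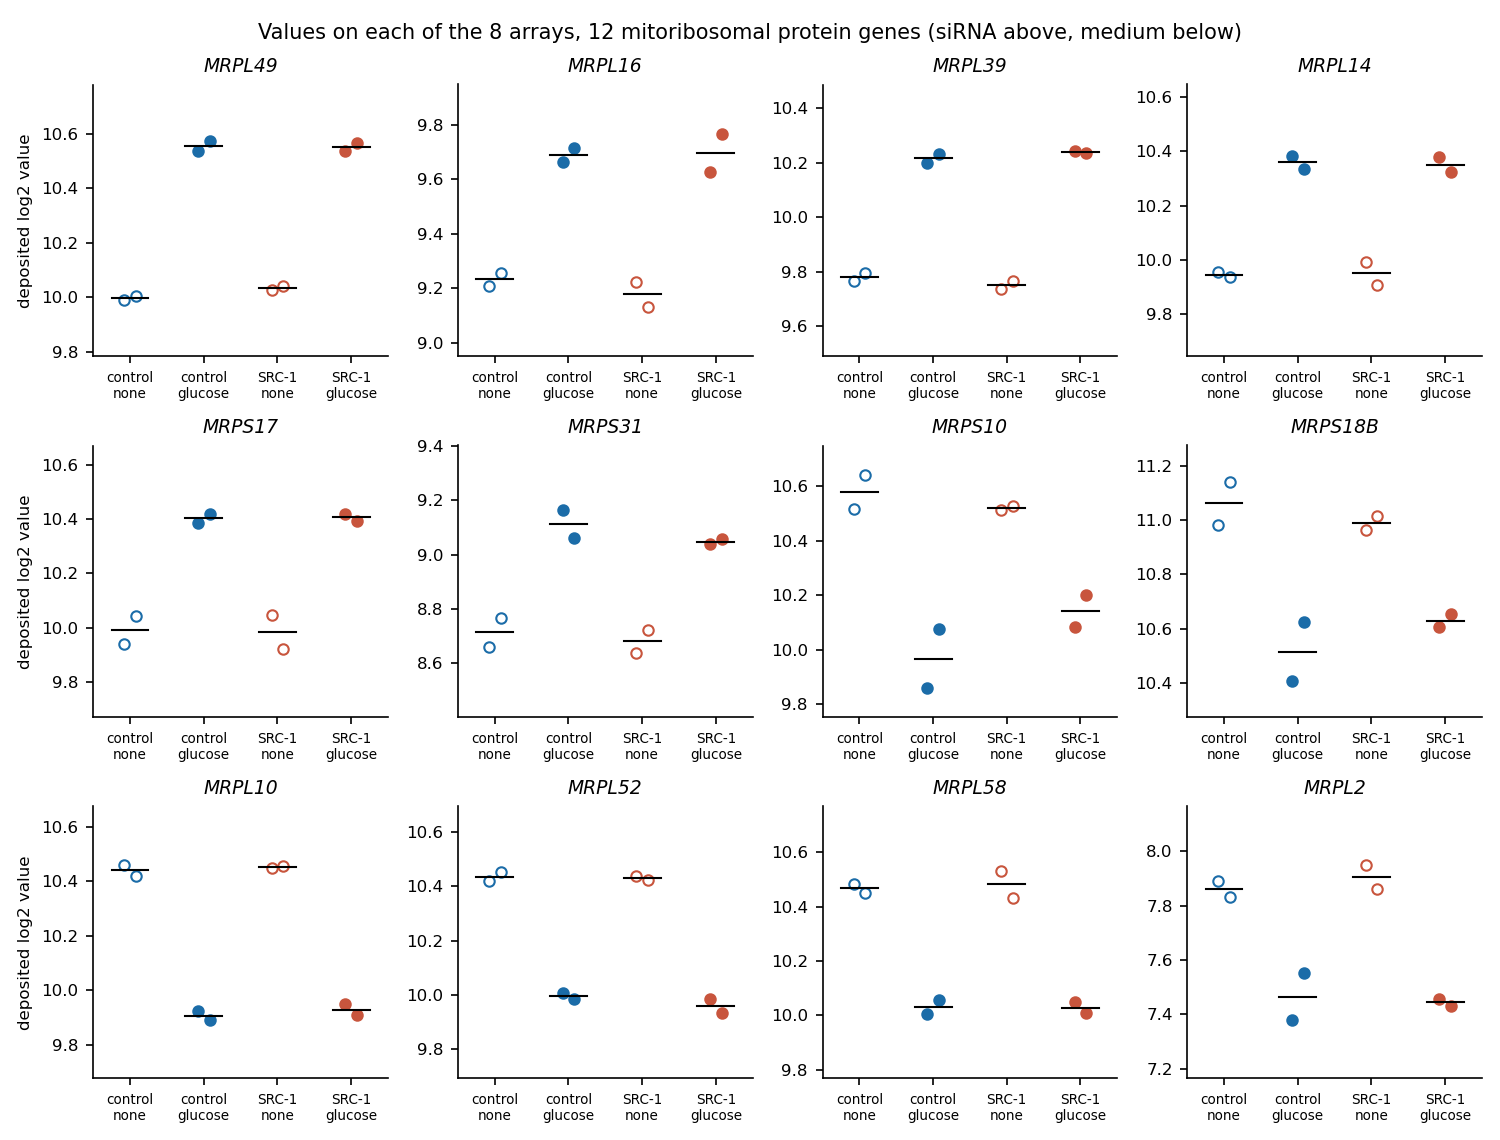
Deposited log2 value on each of the 8 arrays for the 6 largest rises (MRPL49 to MRPS31) and the 6 largest falls (MRPS10 to MRPL2) with control siRNA. Open points are arrays without glucose, filled points arrays with glucose, blue is control and red SRC-1 siRNA, short lines are means of 2 arrays, and each vertical axis spans 1 log2 unit. In every panel the open and filled points of an arm are apart, while the same medium lies at a like height with either siRNA.

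Each structural list except the short one of the stalk held both rises and falls. Of all genes tested, 23.6% rose and 21.6% fell with control siRNA, and 24.6% rose and 20.0% fell with SRC-1 siRNA. Of the 14 small-subunit proteins with bacterial counterparts, 5 rose and 4 fell with control siRNA, at a median of 0.046, and 4 rose and 4 fell with SRC-1 siRNA, at a median of 0.070. Of the 10 small-subunit proteins without such counterparts, 3 rose and 3 fell in each arm. Of the 29 large-subunit proteins with bacterial counterparts, 7 rose and 5 fell with control siRNA (median 0.092) and 7 rose and 4 fell with SRC-1 siRNA (median 0.091). Of the 20 large-subunit proteins without them, 5 rose and 4 fell (median -0.095) and 6 rose and 6 fell (median -0.069). Of the 9 proteins at the polypeptide exit tunnel, 3 rose and 2 fell with control siRNA and 2 rose and 2 fell with SRC-1 siRNA. The 12 proteins of the central protuberance, the region above the tRNA sites, gave 3 rises with 2 falls and 3 rises with 3 falls. MRPS28 and MRPL55 were in none of these lists and were not called.

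The arms gave largely the same members. 18 genes rose in both arms, beside 20.6% of all genes, and 15 fell in both, beside 17.4%. No member was called in opposite directions, beside 4 of all 13584 genes, and 35 were called in neither arm, beside 6539. The shared genes made up 91.7% of the calls with control siRNA and 89.2% of those with SRC-1 siRNA. Over all genes tested these shares were 84.1% and 85.1%. MRPS11 and MRPL17 rose and MRPL21 fell with control siRNA alone, and MRPL13 and MRPL41 rose and MRPL42 and MRPS30 fell with SRC-1 siRNA alone. None of these 7 differed between the arms by the test of the difference itself. Across the 75 genes, which are not independent replicates, the differences of the arms correlated at a Pearson r of 0.955 and a Spearman rho of 0.960. The arms have no array in common, and over all 13584 genes the values were 0.956 and 0.901.

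**Figure D3:**
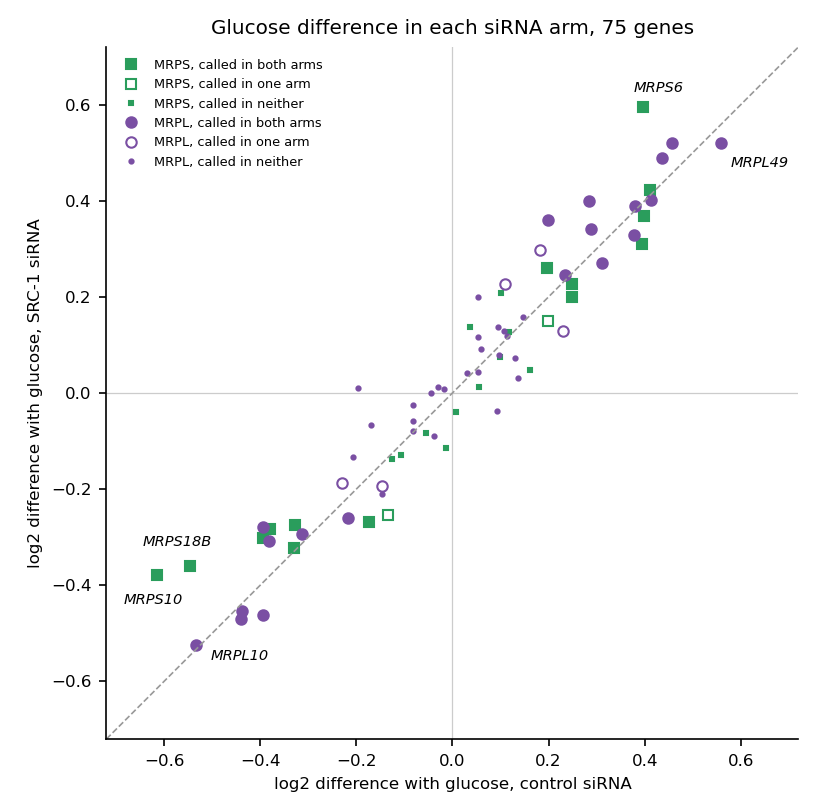
Log2 glucose difference of the 75 genes with control siRNA (horizontal) against SRC-1 siRNA (vertical), squares for MRPS and circles for MRPL symbols. Large filled symbols were called in both arms, open symbols in one arm and small symbols in neither, and the dashed line marks equal differences. The points follow the line, with MRPS10 and MRPS18B above it at the low end and MRPS6 above it at the high end.

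SRC-1 siRNA itself moved no mitoribosomal gene past the threshold. In the comparison with glucose, 0 of 75 members were called, beside 0.00736% of all genes, and 0 members had an unadjusted p below 0.05, beside 781 genes of 13584. Without glucose 0 members were called, beside 0.0221% of all genes, and averaged over the media 0 were called, beside 0.0294%. The number of members with an unadjusted p below 0.05 was 0 in both, beside 434 and 674 genes. The knockdown differences of the members lay between -0.15 and 0.18 with glucose, between -0.13 and 0.12 without and between -0.10 and 0.088 on average.

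The intervals, each for its gene alone and not for all genes jointly, show how large a knockdown difference these arrays allow. Averaged over the media, the 95% intervals of all 75 genes lay between -0.22 and 0.22 on the log2 scale, the widest reaching a 1.17-fold change. With glucose the intervals lay between -0.32 and 0.38 (1.30-fold), and without glucose between -0.32 and 0.30 (1.25-fold). These bounds are smaller than the estimated glucose differences of MRPL49, MRPL10, MRPL52, MRPL58, MRPL16 and MRPL39, which are among the largest. The glucose differences have intervals too. With control siRNA their limits nearest to no change were -0.30 for MRPL52, -0.28 for MRPL58, 0.29 for MRPL16 and 0.30 for MRPL39, within the bounds with glucose. The smallest unadjusted p with glucose was that of MRPS15, a counterpart of bacterial S15, which read 11.65 and 11.52 with control siRNA and 11.48 and 11.38 with SRC-1 siRNA. The arrays did not overlap, but the difference of -0.15 ± 0.072 had an adjusted p of 0.896. Such a lack of overlap between the siRNAs with glucose was found for 21 of the 75 members and 4413 of all 13584 genes. MRPS6 (0.18 ± 0.085) and MRPS10 (0.18 ± 0.090) had the largest positive values with glucose, and MRPL38 (0.12 ± 0.080) and MRPL48 (-0.13 ± 0.087) the values farthest from 0 without it.

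The interaction, which tests whether the glucose difference depended on the siRNA, was called for 0 members and for 0% of all genes, and 0 members had an unadjusted p below 0.05, beside 465 genes. MRPS10 had the largest interaction, 0.24 ± 0.127 with a 95% interval from -0.055 to 0.53 (unadjusted p = 0.0995, adjusted p = 0.999). The corresponding values were 0.21 ± 0.123 for MRPL48, 0.20 ± 0.120 for MRPS6, 0.19 ± 0.128 for MRPS18B and 0.16 ± 0.090 for MRPL44. MRPL33 had the lowest, -0.13 ± 0.098. Interactions of the size of the MRPS10 value were therefore not resolved with 2 arrays a group. These values come from the probe set used for each gene. For MRPS10 and MRPS18B, the smaller fall with SRC-1 siRNA was not seen on their other probe sets.

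**Figure D4:**
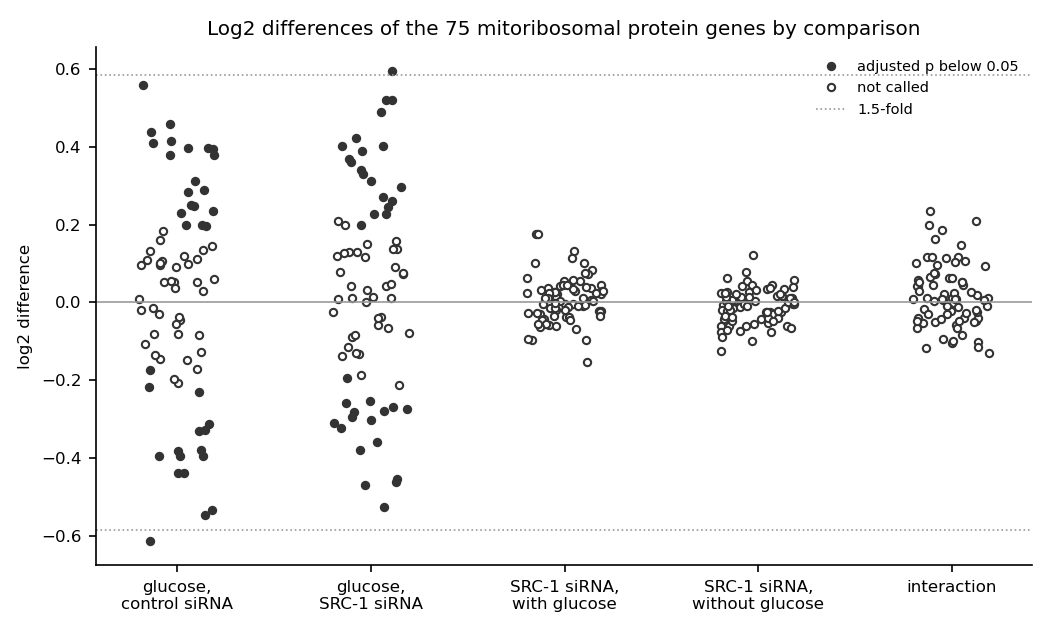
Log2 differences of the 75 genes in 5 comparisons: glucose minus none in each siRNA arm, SRC-1 minus control siRNA in each medium, and the interaction. Each point is a gene, filled where the adjusted p is below 0.05, and dotted lines mark 1.5-fold. The glucose comparisons span about -0.61 to 0.60 with 36 and 37 filled points, and the SRC-1 siRNA comparisons stay between -0.15 and 0.18 with 0.

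Because the members are probe sets, each was also examined on its own, in a fit of all 41091 probe sets tied to a single gene with no filter. With control siRNA 19 of the 140 member probe sets rose and 20 fell, beside 24.1% of all probe sets in either direction, and with SRC-1 siRNA 25 rose and 19 fell, beside 23.4%. Of the 30 genes with at least 2 probe sets past the filter, the probe sets had the same sign for 21 with control and 16 with SRC-1 siRNA. Of those 30, 0 genes had probe sets called in opposite directions in an arm by this fit. By the fit of 13584 genes, however, MRPS30 was a called fall with SRC-1 siRNA (-0.25). Another of its probe sets was a called rise in that arm here (0.36).

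For several of the genes that led the falls, separate probe sets gave the same direction. MRPS10 has 3 probe sets, and with control siRNA they fell by 0.61, 0.56 and 0.60, and with SRC-1 siRNA by 0.38, 0.59 and 0.64. The probe set used for MRPS10 thus showed a lower fall in the SRC-1 arm than the others did. Both probe sets of MRPS18B (-0.55 and -0.38 with control, -0.36 and -0.44 with SRC-1 siRNA), of MRPL2 (-0.39 and -0.63, -0.46 and -0.47) and of MRPS14 (-0.33 and -0.45, -0.32 and -0.56) fell in each arm. MRPS31 had a pair that rose in each arm, at 0.40 and 0.48 with control siRNA and at 0.37 on both with SRC-1 siRNA.

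Other genes gave unlike values, and these were singled out after their values were seen. MRPS30 had -0.13 and -0.25 on the probe set used and 0.34 and 0.36, called as a rise in both arms, on another, which read 7.13 and 7.12 without and 7.38 and 7.54 with glucose under control siRNA. The direction of MRPS30 therefore depends on the probe set. MRPL42 had -0.15 on the probe set used and 0.44, called as a rise, on another with control siRNA. MRPS25, not called by the probe set used (0.099 and 0.075), had another that rose by 0.63 and 0.59. MRPS12 had rises of 0.62 and 0.60 on 2 other probe sets with control siRNA and -0.0065 on the fourth. MRPL35 had 0.75 on 1 probe set and 0.062 on another with control siRNA, MRPL43 had a called fall of 0.44 on 1 of its 3, and MRPS16 had -0.18 and 0.0073 on its second. A dim probe set of MRPS26, under the filter, fell by 0.43 with control siRNA while the one used had 0.25.

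**Figure D5:**
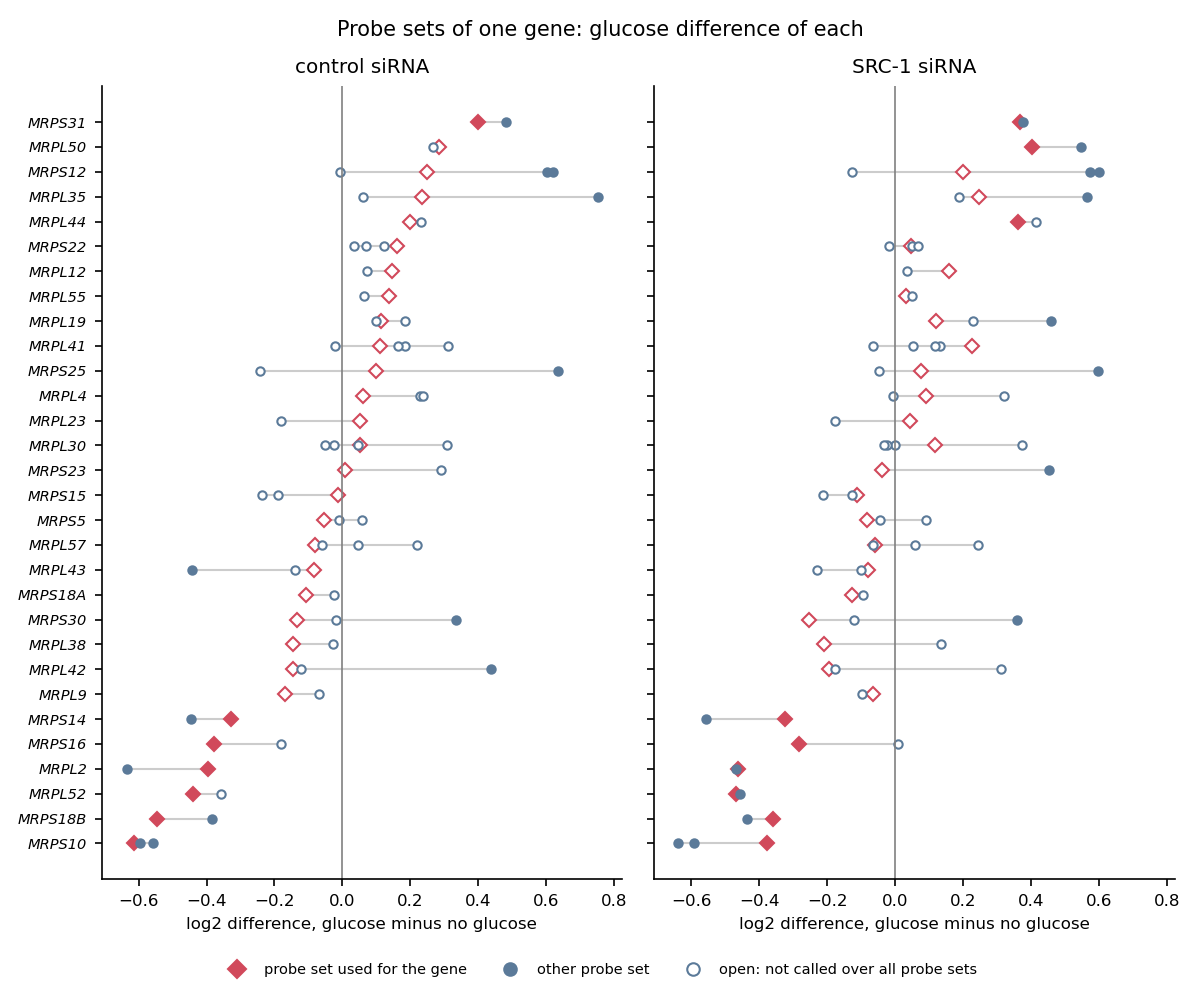
Log2 glucose difference of every probe set past the filter for the 30 mitoribosomal genes with at least 2, with control (left) and SRC-1 siRNA (right). Diamonds are the probe sets used for the genes, circles the others, and filled symbols were called in the fit over all 41091 probe sets. The probe sets of MRPS10, MRPS18B, MRPL2 and MRPS14 lie together below 0, while those of MRPS30, MRPL42, MRPS25 and MRPS12 lie on both sides of 0 or far apart in at least 1 arm.

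The counts depended on some choices of analysis. Without the probe sets named _s_at or _x_at, which by the maker's naming may match more than 1 transcript, 42 members could be tested, and 16 were called with control and 20 with SRC-1 siRNA, beside 42.9% and 42.6% of all genes under that choice. Without the first array of control siRNA without glucose, 23 members were called with control siRNA and the median fell to 0.00065, beside 35.1% of all genes. Without the second array of SRC-1 siRNA without glucose, 24 were called with SRC-1 siRNA, beside 35.6%. Over all alternatives in which they could be tested, 22 of the 36 calls with control siRNA and 19 of the 37 with SRC-1 siRNA held. With control siRNA the calls lost under at least 1 alternative were MRPL17, MRPL21, MRPL24, MRPL35, MRPL44, MRPL50, MRPL51, MRPL54, MRPS2, MRPS11, MRPS12, MRPS16, MRPS26 and MRPS35. With SRC-1 siRNA they were MRPL1, MRPL13, MRPL24, MRPL35, MRPL36, MRPL41, MRPL42, MRPL50, MRPL54, MRPS2, MRPS10, MRPS12, MRPS16, MRPS18B, MRPS18C, MRPS26, MRPS30 and MRPS35.

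RNA quality was read from the control probe sets at the 3' and 5' ends of 2 messages. The 3' minus 5' log2 signal of GAPDH was 0.157 on the glucose arrays and 0.130 on the others (difference 0.027, exact two-sided permutation p = 0.0571, 4 arrays against 4), and that of ACTB was 0.573 and 0.480 (difference 0.093, p = 0.143). The part of this in the glucose differences was not tested.

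Some sequence features were more frequent in the promoters of the members than in other promoters, though most members lacked each of them. The choice of genes did not use these features. RefSeq promoters (GRCh38.p14, 250 bases before to 50 after the start) were matched for 67 of the 75 genes, and fixed letters were searched on both strands. The core of the binding motif of ETS-family factors, CCGGAAG, which the GA-binding protein GABP also recognises, was in 28 of the 67 (41.8%), beside 10.7% of 27305 promoters and 17.9% of the 10909 matched promoters of genes tested. The YY1 core AAGATGGCG was in 12 (17.9%), beside 1.85% and 3.70%. The core of the NRF1 motif, GCATGCGC, was in 6 (8.96%), beside 3.27% and 5.17%. The E-box CACGTG, which MYC and USF can bind, was in 6 (8.96%), beside 7.43% and 9.96%. The cyclic AMP element TGACGTCA was in 0, beside 1.98% and 3.10%, and the amino acid response core TGATGNAA in 1 (MRPL55), beside 3.67% and 1.93%. Such matches describe the letters of this window and are not binding sites. No comparison set of genes with a like signal was used.

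The ETS core was found among risers and fallers alike: in 7 of the 17 matched genes that rose in both arms, 6 of the 13 that fell in both and 15 of the other 37. The YY1 core was in 2 of the 17, 3 of the 13 and 7 of the 37. The NRF1 core was in 0 of the 17, 3 of the 13 and 3 of the 37. Chosen for display were the 2 largest rises and the 2 largest falls in both arms that hold the ETS core in the 250 bases before the start. The choice itself thus fixed that genes of both directions carry the core here. Those 250 bases are given below for these genes. They are MRPS31 (chr13:40771191-40771440, minus strand), MRPL27 (chr17:50373185-50373434, minus strand), MRPS10 (chr6:42217862-42218111, minus strand) and MRPL58 (chr17:75012420-75012669, plus strand), each 5′ to 3′ on the gene's strand, with the ETS core of either strand in capitals.
MRPS31: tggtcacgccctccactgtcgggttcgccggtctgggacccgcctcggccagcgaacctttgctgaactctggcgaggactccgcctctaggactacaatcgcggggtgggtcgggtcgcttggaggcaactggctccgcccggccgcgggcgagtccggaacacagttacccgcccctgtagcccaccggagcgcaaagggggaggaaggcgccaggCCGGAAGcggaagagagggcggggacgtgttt
MRPL27: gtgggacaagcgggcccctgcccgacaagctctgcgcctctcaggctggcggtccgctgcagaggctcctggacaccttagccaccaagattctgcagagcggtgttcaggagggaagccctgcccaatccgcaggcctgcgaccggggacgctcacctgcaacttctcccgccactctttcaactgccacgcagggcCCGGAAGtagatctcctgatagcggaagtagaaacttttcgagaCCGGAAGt
MRPS10: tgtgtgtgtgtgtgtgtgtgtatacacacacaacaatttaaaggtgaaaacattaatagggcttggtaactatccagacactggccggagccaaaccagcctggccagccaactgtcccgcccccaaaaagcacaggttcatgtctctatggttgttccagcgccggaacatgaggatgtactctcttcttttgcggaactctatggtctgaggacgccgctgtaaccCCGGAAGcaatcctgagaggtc
MRPL58: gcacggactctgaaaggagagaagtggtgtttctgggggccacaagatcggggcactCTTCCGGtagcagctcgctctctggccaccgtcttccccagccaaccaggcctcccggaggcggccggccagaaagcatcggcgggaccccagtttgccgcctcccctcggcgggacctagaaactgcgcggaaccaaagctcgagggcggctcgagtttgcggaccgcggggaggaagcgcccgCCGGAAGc
The core begins 32 bases before the start in MRPS31, which rose, and 22 bases before it in MRPS10, which fell. MRPL27, which rose, and MRPL58, which fell, both have one 8 bases before the start. MRPL27 has a further copy at 52 bases, and MRPL58 one at 193 bases on the opposite strand.

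Lists of the wider machinery around the mitoribosome also held calls in both directions. Of all genes tested, 45.2% were called with control and 44.7% with SRC-1 siRNA. The lists below had 75% (other symbols), 41.2% (translation factors), 54.5% (assembly factors), 55.6% (mitochondrial DNA) and 63.2% (import) called in each arm. These lists are short, and their shares were not tested against that of all genes. Of 4 mitoribosomal proteins with other symbols, 2 rose and 1 fell in both arms. DAP3, a GTP-binding protein of the small subunit, fell by 0.42 ± 0.061 and 0.41 ± 0.061, CHCHD1 rose by 0.36 ± 0.085 and 0.46 ± 0.085, and PTCD3 rose by 0.26 ± 0.071 and 0.23 ± 0.071. Of 17 translation factors 3 rose and 4 fell in each arm. MTIF2, the initiation factor that places the first tRNA, fell by 0.47 ± 0.062 and 0.37 ± 0.062, and OXA1L, the insertase that takes nascent chains into the inner membrane, fell by 0.42 ± 0.066 and 0.47 ± 0.066. LRPPRC, which stabilises mitochondrial messages, fell by 0.35 ± 0.070 and 0.33 ± 0.070, and TRMU, which thiolates mitochondrial tRNAs, rose by 0.50 ± 0.102 and 0.54 ± 0.102.

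Of 22 genes listed as assembly factors, 6 rose and 6 fell with control siRNA and 7 rose and 5 fell with SRC-1 siRNA. MALSU1, the partner of MRPL14, rose by 0.44 ± 0.063 and 0.48 ± 0.063, as MRPL14 did. MTERF1, a transcription termination factor kept in this list, rose by 0.54 ± 0.084 and 0.52 ± 0.084. With control siRNA the rRNA methyltransferase MRM3 rose by 0.38 ± 0.061 and the methyltransferase NSUN4 fell by 0.44 ± 0.077. With SRC-1 siRNA MTERF4, which acts with NSUN4, rose by 0.53 ± 0.083 and the rRNA methyltransferase TFB1M fell by 0.35 ± 0.065. Of 9 genes of mitochondrial DNA transcription and copy number, 4 rose and 1 fell in each arm (median 0.22 and 0.24). MGME1, a nuclease of mitochondrial DNA, rose by 0.55 ± 0.075 and 0.57 ± 0.075, the elongation factor TEFM by 0.24 ± 0.074 and 0.36 ± 0.074, and the polymerase subunit POLG2 fell by 0.34 ± 0.063 and 0.27 ± 0.063. The RNA polymerase POLRMT rose by 0.31 ± 0.110 with control siRNA, and the DNA-packaging factor TFAM rose by 0.31 ± 0.084 with SRC-1 siRNA. In these lists and those below, a gene given for 1 arm only was among the 4 called genes of smallest p there. This does not show a difference between the arms, and the interaction was called for 0 of all 13584 genes.

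Of 19 genes of protein import, the route by which mitoribosomal proteins enter the organelle, 6 rose and 6 fell with control siRNA and 5 rose and 7 fell with SRC-1 siRNA. GFER, the oxidase of the intermembrane space, fell by 0.75 ± 0.099 and 0.86 ± 0.099, the chaperone TIMM9 by 0.49 ± 0.067 and 0.48 ± 0.067, and the matrix chaperone HSPA9 by 0.52 ± 0.067 and 0.39 ± 0.067. TIMM17B fell by 0.33 ± 0.062 with control siRNA, and HSPE1, the co-chaperonin of the matrix, rose by 0.66 ± 0.107 with SRC-1 siRNA.

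The proteins of the cytosolic ribosome gave fewer calls. Of 58 tested, 1 rose and 8 fell in each arm, or 15.5%, beside 45.2% and 44.7% of all genes. The median was -0.072 and -0.070. RPL3 fell by 0.31 ± 0.065 and 0.35 ± 0.065, RPL12 by 0.30 ± 0.062 and 0.31 ± 0.062, and RPL22L1 by 0.36 ± 0.074 and 0.36 ± 0.074. With control siRNA RPL10L fell by 0.47 ± 0.105, and with SRC-1 siRNA RPL26L1 fell by 0.28 ± 0.062. Many of these genes have near-identical processed copies, which the probe sets may also bind. The difference between both ribosomes in the share of genes called was not tested.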

How the data were processed

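Per the labels, RNeasy columns gave the RNA, from which biotinylated cRNA was made by the Affymetrix procedure. The deposited values were used as log2 signals. The log base was inferred from their range of 1.98 to 14.7, and the background correction, probe summary and normalization are not given in the sources used here. Of 54675 probe sets, 62 were controls, 41091 named 1 gene, 1801 named several and 11721 were not listed in the annotation. Symbols were compared with RefSeq through Entrez identifiers, of which 41037 matched.

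Probe sets with a mean under the 40th percentile (log2 4.80) were left out, and the one with the highest mean stood for its gene. One limma model (limma 3.58.1, R 4.3.3) with a mean per group was fitted to all 8 arrays, with 4 residual and 4.35 prior degrees of freedom, moderated two-sided tests and Benjamini-Hochberg adjustment over 13584 genes. An exact permutation test of 2 arrays against 2 cannot go below p = 0.333, so calls rest on the shared spread. Code was tested on simulated data.

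The members, gene lists, motifs and alternatives were chosen with earlier results of these data known. Named are the 10 largest rises and falls per glucose comparison among called genes with groups apart, the 3 smallest p in each direction elsewhere, landmark genes, and up to 4 called genes of each further list. Not every gene so named is given for every comparison, and further members were added for completeness.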

Additional observations from a re-analysis of the deposited data

How the results depend on the processing

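The counts of members called stayed within 1.5 times of 36 with control siRNA and 37 with SRC-1 siRNA under quantile normalization (35 and 37), centring on array medians (34 and 37), no filter (29 and 31), a stricter filter, the 60th percentile (39 and 40), averaging over the probe sets of a gene (36 and 37), a prior that follows the mean level (42 and 43), array weights (35 and 38) and a fit restricted to the arrays of each comparison (29 and 34). They moved further without probe sets ending in _s_at or _x_at, where 16 of 42 and 20 of 42 members were called, and with a requirement of 1.5-fold, where 1 and 1 were left. Leaving out each array in turn gave 23 to 34 members with control siRNA and 24 to 37 with SRC-1 siRNA. The replicate numbers did not pair the arrays, since correlations of same-numbered deviations ran from -0.096 to 0.12, and a replicate block gave 33 and 36 calls and 0 in each SRC-1 siRNA comparison and the interaction. In those comparisons 0 members were called under every alternative run. The named genes gave 491 values under the alternatives with control siRNA, of which 14 lost the call and 1 gained one, and 456 with SRC-1 siRNA, of which 25 lost it and 1 gained one, with 0 called values reversed. The cause was not tested. With no detection calls, a low signal could not be set against its background.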

Other observations

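Several mitoribosomal genes start beside a gene on the opposite strand, within 500 bases by the RefSeq starts. Such neighbours were tested for 12 members, and MRPL46 and MRPS11 are each other's neighbour. MRPL27 and its neighbour EME1, an endonuclease subunit, both rose with glucose under control siRNA, by 0.38 and 0.41, and MRPS27 and PTCD2, a mitochondrial RNA-processing protein, both fell, by 0.39 and 0.83. In 2 pairs the called directions were opposite: MRPL50 rose by 0.28 while ZNF189 fell by 0.20, and MRPS12 rose by 0.25 while SARS2, the mitochondrial seryl-tRNA synthetase, fell by 0.31. MRPL49, the highest rise with control siRNA, starts beside FAU, a precursor of cytosolic ribosomal protein S30, whose difference of -0.039 ± 0.067 was not called (adjusted p = 0.675). MRPL57 was not called (-0.082) while its neighbour SKA3, a kinetochore protein, rose by 0.88 ± 0.068. The pairs given here with values kept their directions and calls with SRC-1 siRNA. MRPS11 rose by 0.20 with control siRNA and was not called with SRC-1 siRNA (0.15), and MRPL46 was called in neither arm. The pairs were found from gene starts after the members' values were known.

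The noncoding MRPL20-AS1, left out of the members, had a difference of -0.21 with control siRNA, not called, and fell by 0.30 with SRC-1 siRNA (adjusted p = 0.0242 over all probe sets).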
